A study of Homo sapiens with 16 samples.

Results

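The 10 aldehyde dehydrogenase genes ALDH1A1, ALDH1A2, ALDH1A3, ALDH1B1, ALDH2, ALDH3A1, ALDH3A2, ALDH3B1, ALDH7A1 and ALDH18A1 were followed across 6 lines derived from SW480 cells, which were established from a colon adenocarcinoma. They were taken by gene symbol, and all 10 were found among the 66023 genes of the count table. RNA-seq had been performed on 16 samples. Parental (n = 2) was unmodified SW480. The other lines carried lentiviral constructs and were selected with puromycin. shScrambled (n = 2) carried a non-mammalian control shRNA and is the control of both knockdown (KD) lines. shAjuba1 (n = 3) carried an shRNA against the coding region of AJUBA, and shAjuba2 (n = 3) one against its non-coding region. Ajuba OE (n = 3) overexpressed tagged AJUBA from a CMV promoter, and Control (n = 3) carried the same construct with the AJUBA sequence removed. AJUBA encodes a LIM domain protein of the cell adhesion and Hippo pathways. Each line is a line of its own, and nothing in the labels places its replicates in separate transductions or cultures. The study speaks of technical replicates of each line, so n counts such replicates and p-values measure the spread between them only.

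Aldehyde dehydrogenases (ALDH) oxidise aldehydes to carboxylic acids with NAD or NADP. ALDH1A1, ALDH1A2 and ALDH1A3 turn retinaldehyde into retinoic acid, ALDH2 and ALDH1B1 clear acetaldehyde in mitochondria, ALDH3A1, ALDH3A2 and ALDH3B1 act on aromatic and fatty aldehydes, ALDH7A1 works in lysine breakdown, and ALDH18A1 starts proline synthesis. The ALDEFLUOR assay, which the study used as a test of stem cell character, reads the sum of the isozymes that oxidise a fluorescent substrate, and ALDH1A1 and ALDH1A3 are the isozymes best known for it. The enzyme activity was not analysed here. The question for the RNA was which of these genes are transcribed in the lines and which of them move with AJUBA.

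Total counts ranged from 30132396 to 69684675 per sample. KRT8, KRT18, KRT19 and EPCAM marked an epithelial line, with at least 48.3 RPM (the count per 1000000 counts of the sample) of each in every sample, while CEACAM5 had 0 to 2 counts, and LGR5, an intestinal stem cell marker, reached at most 1.65 RPM. Of the 14 markers of fibroblasts, leukocytes, endothelium and liver, 10 stayed under 1 RPM in every sample, DCN, PTPRC, CDH5 and TTR among them at no more than 3 counts. COL1A1 reached 26.4 RPM, VWF 5.29, LYZ 4.16 and CD68 1.51, and their part in the results was not tested. Replicate 2 of shAjuba2, of Control and of Ajuba OE stood apart, with 19.7%, 18.0% and 19.9% of its counts in its 10 highest genes against 8.8 to 15.6% in the other samples. In each of these lines 7 of the 9 ALDH genes with enough counts for a test were lowest in replicate 2, where 42.3%, 37.1% and 40.5% of all genes were. In shAjuba1, whose replicate 2 did not stand apart, 6 of 9 were lowest in it, where 35.9% of all genes were.

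ALDH1A3 was the leading transcript of the group, ALDH1A1 was close to absent, and both KD lines held less ALDH1A3 than every other line. ALDH1A3 had 5946 to 25164 counts per sample. ALDH1A1 had 0 to 5 counts in each of the 16 samples, 29 in all, and 0 in 4 samples, including all 3 of Ajuba OE. At these depths a count of 3 equals 0.0431 to 0.0996 RPM. The RNA of ALDH1A2, the other retinaldehyde dehydrogenase, was also scarce, at 4 to 30 counts per sample.

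The promoter windows of the highest and the lowest of these genes are shown because they lie at opposite ends of the order although both enzymes make retinoic acid. Each window runs from 250 bases before to 50 bases after a transcript start, taken from RefSeq on GRCh38.p14 and written 5′ to 3′ on the strand of the gene. These starts lie inside the gene bounds of the annotation used for the symbols. Those bounds begin at 100877714 for ALDH1A3 and, on the minus strand, at 73080442 for ALDH1A1. Capitals mark CG dinucleotides, the bases at which DNA methylation occurs. The windows lie at chr15:100879581-100879880 on the plus strand for ALDH1A3 and at chr9:72953004-72953303 on the minus strand for ALDH1A1.
ALDH1A3: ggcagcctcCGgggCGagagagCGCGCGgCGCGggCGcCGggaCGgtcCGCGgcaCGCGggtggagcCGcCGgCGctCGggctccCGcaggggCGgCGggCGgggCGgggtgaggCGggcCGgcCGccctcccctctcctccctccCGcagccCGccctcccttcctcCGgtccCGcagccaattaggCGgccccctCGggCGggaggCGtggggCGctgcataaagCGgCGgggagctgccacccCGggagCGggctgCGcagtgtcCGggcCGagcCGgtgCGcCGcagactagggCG
ALDH1A1: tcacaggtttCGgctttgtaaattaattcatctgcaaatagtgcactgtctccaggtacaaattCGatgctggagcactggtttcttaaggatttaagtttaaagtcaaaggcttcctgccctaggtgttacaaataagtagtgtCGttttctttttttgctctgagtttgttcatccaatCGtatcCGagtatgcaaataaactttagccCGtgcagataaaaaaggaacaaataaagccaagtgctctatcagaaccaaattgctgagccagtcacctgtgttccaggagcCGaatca
The ALDH1A3 window held 46 CG dinucleotides and 81.7% G and C, and 2.9% of the 35116 windows held as many. The ALDH1A1 window held 7 at 40.3% G and C, and 63.2% of windows held as many, against a median of 14 over all windows. Of the windows of ALDH1A2, 1 held 41 CG dinucleotides and the other held 1, so a CG-rich window was also present at a gene whose RNA was scarce. No methylation was measured here.

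RefSeq windows were found for 8 of the 10 genes, 11 windows in all, and ALDH2 and ALDH3A1 had none. The E-box CAGGTG, the letters to which Snail and ZEB factors bind, was searched on both strands and was found in 4 of the 11 windows: that of ALDH1A1, both of ALDH1A2 and the first of ALDH3B1. Of all windows 20.6% hold it. None of the 11 windows held TATAAA, the TATA box core, GGAATG, the core bound by TEAD factors of the Hippo pathway, or 2 copies of AGGTCA with 5 bases between them, a response element of the retinoic acid receptors. These motifs occur in 11.5%, 14.0% and 0.01% of all windows.

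The level of each gene was set against the others per length, as RPM per kilobase (kb) of the union of its exons. ALDH1A3 averaged 54.4 RPM per kb over the 6 line means and ranged from 26.0 to 93.7 over the samples. ALDH18A1 followed at 20.6 (15.3 to 25.1), and neither its range nor that of ALDH1B1, at 11.0 (6.71 to 13.2), overlapped the next higher gene. From there on neighbours overlapped, except that ALDH3B1 lay below ALDH3A2 and ALDH1A2 below ALDH2 without overlap. ALDH7A1 was at 6.34 RPM per kb, ALDH3A1 at 5.09, ALDH3A2 at 4.32, ALDH3B1 at 2.79 and ALDH2 at 2.22. ALDH1A2 (0.0336) and ALDH1A1 (0.0146) lay far below all of them. The order within the middle of the group depended on the length used, because ALDH7A1 has a union of 17914 bases against 4765 for its longest transcript. With the longest transcript ALDH7A1 came second at 23.8 RPM per kb, while ALDH1A3 stayed first at 83.6.

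**Figure D1:**
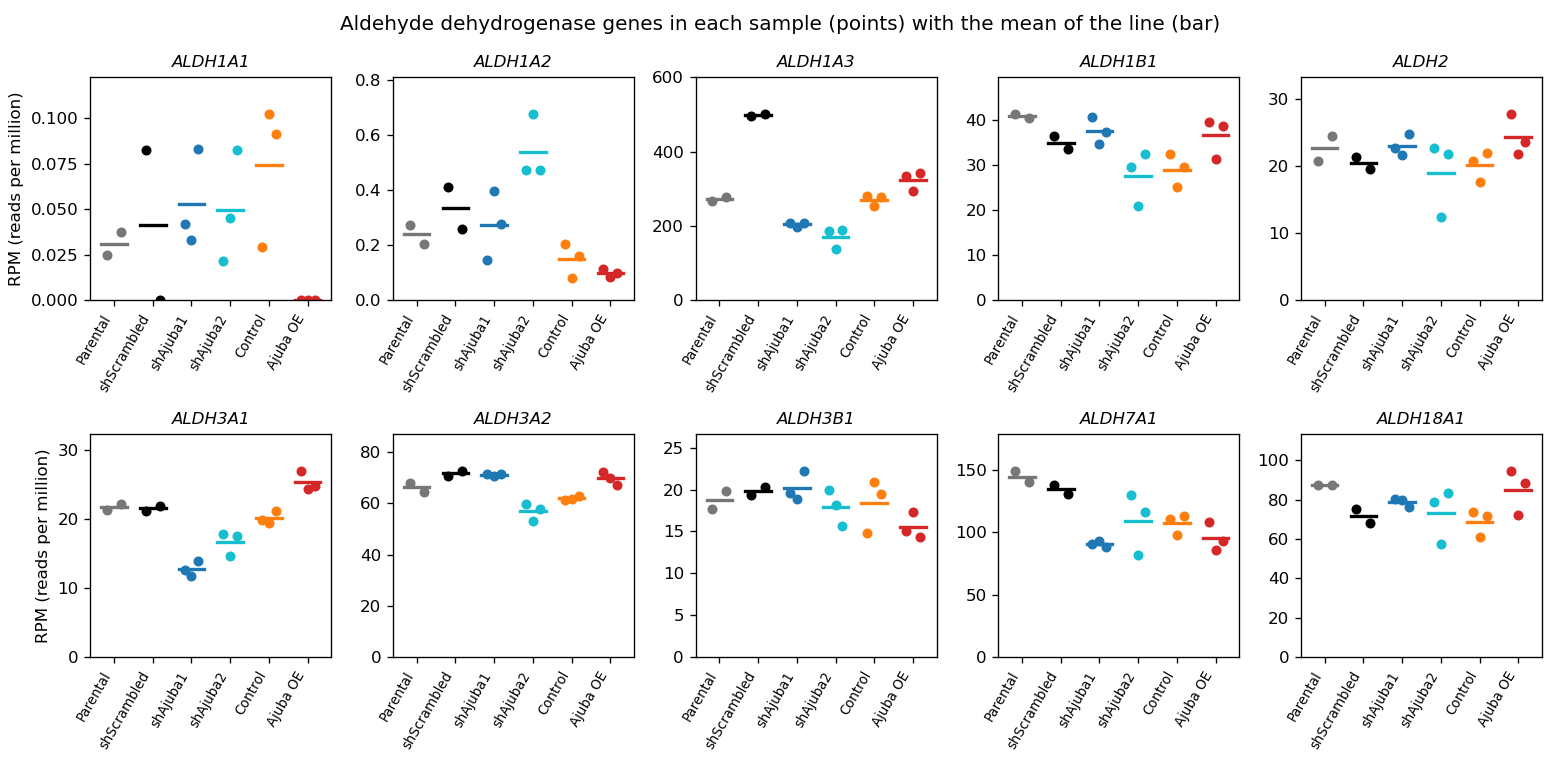
Level of each of the 10 genes in RPM (linear axis from 0, its own scale for each gene) by line, with 1 point per sample and a bar at the mean of the line. ALDH1A3 stood at 496 and 500.2 RPM in shScrambled and at no more than 342 RPM in every other sample, whereas ALDH1A1 reached at most 0.102 RPM.

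ALDH1A3 (ENSG00000184254, chromosome 15, 100877714 to 100916626 on the plus strand of GRCh38) fell in both KD lines. It stood at 496 and 500.2 RPM in shScrambled, at 207, 197 and 209 RPM in shAjuba1, and at 186, 139 and 189 RPM in shAjuba2. The KD samples lay below both controls with no overlap. The fall was by 1.30 on the log2 scale in shAjuba1 (SE 0.0778, 2.46-fold lower, edgeR adjusted p = 1.03e-07) and by 1.59 in shAjuba2 (SE 0.156, 3.01-fold lower, edgeR adjusted p = 0.00212). Both comparisons share the 2 shScrambled samples. In RNA from whole cultures, fewer cells with the transcript and less of it per cell cannot be told apart.

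The size of that fall depended on the control. Parental held 268 and 277 RPM of ALDH1A3, so shScrambled stood above the unmodified cells by 1.82-fold, and the difference of Parental from shScrambled was -0.86 on the log2 scale (SE 0.0799, edgeR adjusted p = 1.44e-08). The vector line Control was at 280.2, 254 and 278 RPM, level with Parental (log2 difference 0.00, SE 0.107, edgeR adjusted p = 0.99) and below shScrambled by 0.87 (SE 0.102, edgeR adjusted p = 0.00585, against 5.80% of all genes called). Both shScrambled samples were therefore higher than the other 14 samples of the series. Against Parental the fall was by 0.44 in shAjuba1 (SE 0.0703, 1.36-fold lower, edgeR adjusted p = 0.000516), where 38.1% of all genes were called, and by 0.73 in shAjuba2 (SE 0.159, 1.66-fold lower, edgeR adjusted p = 0.0387), where 8.14% were. All 6 KD samples lay below both Parental samples. Without replicate 2 of shAjuba2, the sample that stood apart, the fall against shScrambled was by 1.47 (SE 0.101, edgeR adjusted p = 5.30e-08).

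In Ajuba OE, ALDH1A3 stood at 334, 295 and 342 RPM, above all 3 Control samples without overlap. The log2 fold change of 0.32 (SE 0.100, 1.25-fold) did not pass the correction (edgeR adjusted p = 0.133). Between the KD lines the 3 samples of shAjuba2 lay below those of shAjuba1, and this difference did not pass either (log2 difference 0.30, SE 0.132, edgeR adjusted p = 0.134). From the top, the lines stood in the order shScrambled, Ajuba OE, Parental, Control, shAjuba1 and shAjuba2, with Parental and Control overlapping.

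**Figure D2:**
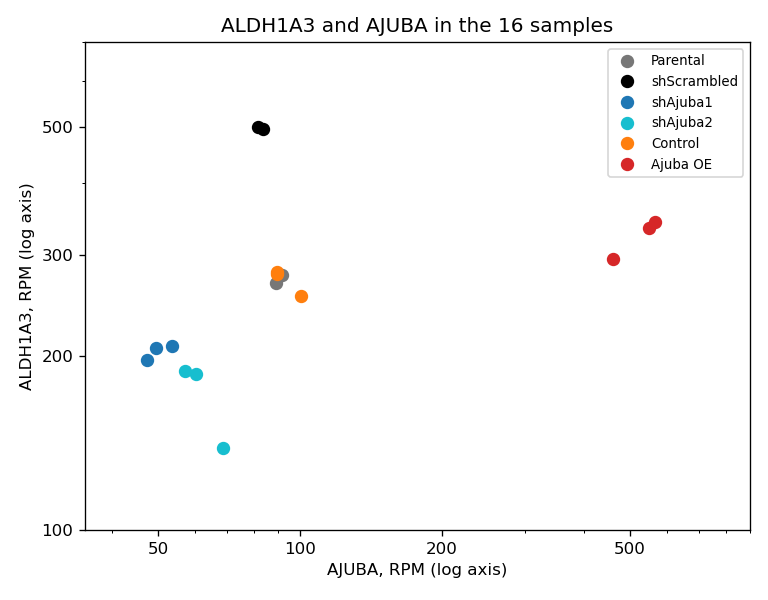
ALDH1A3 against AJUBA in RPM for each of the 16 samples, coloured by line, with both axes on a log scale. The KD samples lie at the lower left (139 to 209 RPM of ALDH1A3), shScrambled lies at 496 and 500.2 RPM at an AJUBA level near that of Parental and Control, and Ajuba OE holds 462 to 566 RPM of AJUBA at 295 to 342 RPM of ALDH1A3.

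AJUBA itself, as a check of the labels, stood at 83.4 and 81.6 RPM in shScrambled, at 47.3 to 53.5 in shAjuba1 and at 57.1 to 68.6 in shAjuba2. It fell by 0.73 in shAjuba1 (SE 0.0834, edgeR adjusted p = 2.19e-05). The log2 difference of -0.46 in shAjuba2 (SE 0.131) did not pass (edgeR adjusted p = 0.0773), although its 3 samples lay below both controls. The increase in Ajuba OE was 5.90-fold (edgeR adjusted p = 7.69e-05). The plot of ALDH1A3 against AJUBA shows that the level of AJUBA did not order the lines by ALDH1A3, since shScrambled had the most ALDH1A3 at an ordinary AJUBA level. No correlation is given, as the samples fall into separate clusters by line.

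An antisense gene, ALDH1A3-AS1, shares 1715 exon bases with ALDH1A3 on the opposite strand and had 995 to 3876 counts. It was also lower in both KD lines, by 1.17 on the log2 scale in shAjuba1 (SE 0.0893, edgeR adjusted p = 8.50e-07) and by 1.15 in shAjuba2 (SE 0.209, edgeR adjusted p = 0.0195). With Parental as the control its log2 differences were -0.05 and -0.04 (SE 0.0958 and 0.212), and neither passed (edgeR adjusted p = 0.727 and 0.918). The libraries were stranded but the strand setting of the counting is not given, so reads in the shared bases may be assigned to either gene or to neither.

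Among the genes whose products act on aromatic and fatty aldehydes, ALDH3A1 (chromosome 17, 19737984 to 19748943, minus strand) had the clearest pattern. This enzyme is best known from the cornea and is a classical target of the aryl hydrocarbon receptor. It stood at 21.2 and 22.0 RPM in shScrambled and at 21.3 and 22.2 RPM in Parental, so both controls had the same level within the spread. The shAjuba1 samples held 12.7, 11.7 and 13.9 RPM, below every other sample of the series. ALDH3A1 fell there by 0.77 on the log2 scale (SE 0.101, 1.71-fold lower, edgeR adjusted p = 7.30e-05), and by 0.80 against Parental (edgeR adjusted p = 0.00011). In shAjuba2 it was at 17.8, 14.7 and 17.6 RPM, again below both controls, but the log2 fold change of -0.42 (SE 0.131) did not pass (edgeR adjusted p = 0.0946). In Ajuba OE it was at 26.9, 24.4 and 24.8 RPM against 19.9, 19.4 and 21.1 RPM in Control. These were the 3 highest values of all 16 samples. The log2 fold change of 0.39 (SE 0.0908) missed the threshold in edgeR (adjusted p = 0.0506) and passed it in DESeq2.

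ALDH3A2, the fatty aldehyde dehydrogenase mutated in Sjögren-Larsson syndrome, varied by at most 1.26-fold between the line means. It passed the test of any difference among the 6 lines (edgeR adjusted p = 0.00131). It had 70.8 and 72.5 RPM in shScrambled, 70.8 to 71.5 RPM in shAjuba1 and 52.9 to 59.9 RPM in shAjuba2. The shAjuba2 samples were the lowest of the series. The difference of shAjuba1 over shAjuba2 passed the test, at 0.37 on the log2 scale (SE 0.0995, edgeR adjusted p = 0.0274), whereas neither line differed from shScrambled past the threshold (log2 fold changes of -0.02 and -0.38, edgeR adjusted p = 0.836 and 0.0809). That call was lost under several other settings, given with the processing. ALDH3B1, which acts on medium and long chain aldehydes at membranes, ranged from 14.3 RPM in Ajuba OE to 22.2 RPM in shAjuba1 and passed in no comparison.

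ALDH7A1 (chromosome 5, 126531200 to 126595362, minus strand), the antiquitin of lysine breakdown, also fell in shAjuba1. The samples held 90.7, 93.1 and 88.2 RPM there against 138 and 131 RPM in shScrambled and 149 and 140.4 RPM in Parental. The fall was by 0.58 on the log2 scale (SE 0.0786, 1.50-fold lower, edgeR adjusted p = 9.11e-05) and by 0.70 against Parental (edgeR adjusted p = 3.21e-05). In shAjuba2 the samples spread widely, at 130, 82.1 and 116 RPM, and the log2 fold change of -0.35 (SE 0.181) did not pass (edgeR adjusted p = 0.266). Control held 111, 97.8 and 113 RPM and Ajuba OE 109, 85.5 and 92.7 RPM, so both lines of the overexpression construct lay below Parental. Ajuba OE did not differ from Control past the threshold (log2 fold change -0.11, SE 0.110, edgeR adjusted p = 0.682), while against Parental it was lower by 0.55 (SE 0.117, edgeR adjusted p = 0.0329), where 7.15% of all genes were called. Its processed pseudogenes had at most 11 counts in any sample.

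ALDH1B1, ALDH18A1 and ALDH2 gave no call in either KD line or in Ajuba OE. Under the replicate block, an alternative given with the processing, ALDH1B1 was called lower in shAjuba2, where 24% of all genes were called. Each of these genes was called higher in Ajuba OE under the block, where 24.3% of all genes were called. ALDH1B1 was at 36.5 and 33.5 RPM in shScrambled, 34.7 to 40.5 RPM in shAjuba1, 20.9 to 32.4 RPM in shAjuba2, 25.0 to 32.4 RPM in Control and 31.4 to 39.6 RPM in Ajuba OE. Other settings aside, its only call among the comparisons of 2 lines was the higher level of Parental (41.2 and 40.5 RPM) over shScrambled. The log2 difference was 0.23 (SE 0.0814, edgeR adjusted p = 0.0341). ALDH18A1, the synthase that forms the glutamate semialdehyde for proline, was likewise higher in Parental (87.6 and 87.7 RPM) than in shScrambled (75.3 and 68.2 RPM), by 0.30 (SE 0.0776, edgeR adjusted p = 0.00563). It ranged from 57.7 to 94.4 RPM over the other lines. With all 16 samples in 1 fit, neither ALDH1B1 nor ALDH18A1 was called between Parental and shScrambled. With DESeq2 and with the replicate block ALDH18A1 was called there and ALDH1B1 was not. ALDH2 ranged from 12.4 RPM in a shAjuba2 sample to 27.7 RPM in an Ajuba OE sample and passed in no comparison of 2 lines without the block.

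ALDH1A2 was highest in shAjuba2, at 0.473, 0.676 and 0.473 RPM, and lowest in Ajuba OE, at 0.115, 0.0833 and 0.101 RPM. The shAjuba2 samples lay above all 13 other samples, on 22 to 30 counts each. The comparison with shScrambled (0.411 and 0.258 RPM) did not pass (log2 fold change 0.67, SE 0.362, edgeR adjusted p = 0.286). A test of any difference among the 6 lines did (edgeR adjusted p = 0.0026). In Ajuba OE the gene was too low to be tested.

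**Figure D3:**
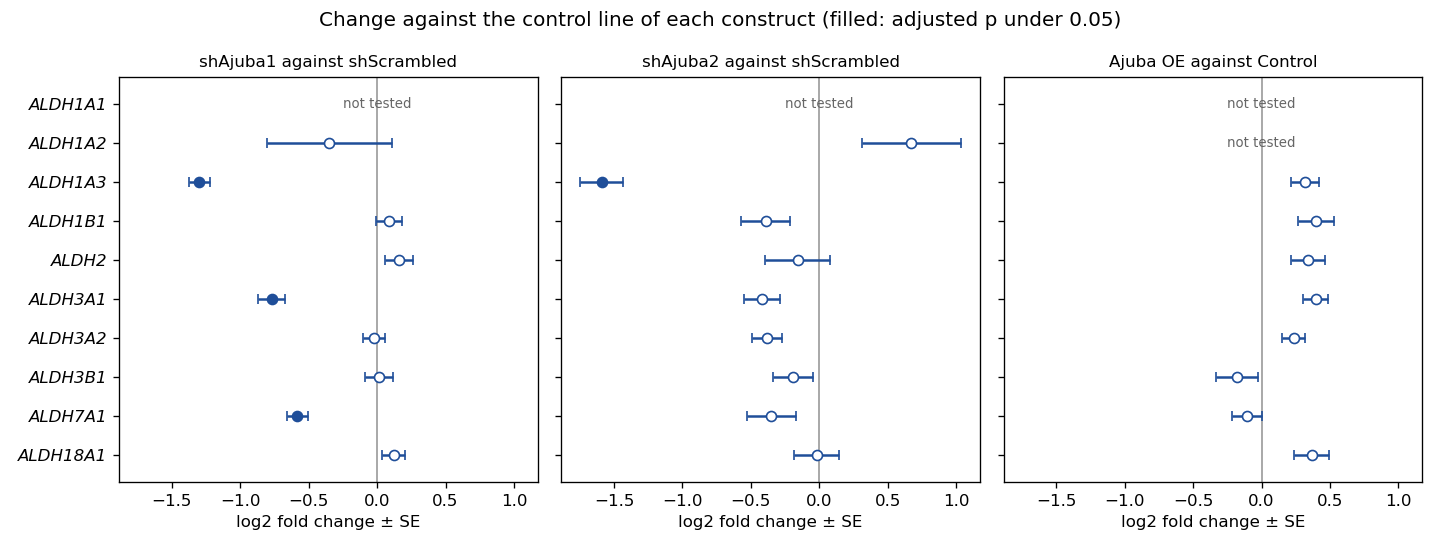
Log2 fold change with its SE (edgeR) for each of the 10 genes in the 3 comparisons of a modified line with its own control, filled where the adjusted p was under 0.05. ALDH1A3 is filled on the lower side in both KD lines, ALDH3A1 and ALDH7A1 in shAjuba1, and no gene is filled in Ajuba OE.

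Over the 9 genes tested, 3 were differentially expressed genes (DEG, adjusted p under 0.05 over all genes tested) in shAjuba1, all lower, where 38.4% of the 21082 genes tested were DEG and 20.2% were lower DEG. In shAjuba2 1 of 9 was a DEG, lower, against 7.63% of 22446 genes and 4.44% that were lower DEG. In Ajuba OE edgeR called none of 8, against 5.43% of 21140 genes, and DESeq2 called 1, ALDH3A1. At an unadjusted p under 0.05 edgeR gave 6 of 8, all higher: ALDH1A3, ALDH1B1, ALDH2, ALDH3A1, ALDH3A2 and ALDH18A1, with log2 fold changes of 0.24 to 0.40, against 8.69% of all genes that were higher at this threshold. With Parental in place of Control the same 6 genes had log2 differences of -0.11 to 0.30, and none passed. The ALDH genes tested had a median log2 fold change of -0.02 in shAjuba1, while the median was -0.35 in shAjuba2 and, for Ajuba OE, it was 0.33. The median of all genes tested was -0.01 in each of these comparisons. The shares of DEG in the KD lines stood near the background, so the number of calls does not set these genes apart. Against shScrambled ALDH1A3 had the largest change of the genes tested in both KD lines. Against Parental it did not in shAjuba1, where its -0.44 was smaller than the -0.80 of ALDH3A1 and the -0.70 of ALDH7A1, and in shAjuba2 the size of its -0.73 lay between those of ALDH1B1, at -0.63 (SE 0.183, edgeR adjusted p = 0.0742), and ALDH1A2, at 1.12 (SE 0.351, edgeR adjusted p = 0.0858), neither of which passed.

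Between shAjuba1 and shAjuba2, 1 of 9 genes differed, against 19.6% of all genes. Parental and shScrambled differed in 3 of 9 genes, against 30.7%. Control and Parental differed in 0 of 8 by edgeR and by DESeq2, against 0.370% of all genes, with 3 of 8 (ALDH1B1, ALDH7A1 and ALDH18A1) at an unadjusted p under 0.05, all lower in Control, against 8.42% of all genes. Across the 6 lines 6 of 9 genes differed, against 45.7% of 23597 genes, namely ALDH1A2, ALDH1A3, ALDH1B1, ALDH3A1, ALDH3A2 and ALDH7A1. The other 3 genes tested, ALDH2, ALDH3B1 and ALDH18A1, did not pass (edgeR adjusted p = 0.185, 0.377 and 0.0677).

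ALDH1A3 took 46.4% ± 0.87 (SD, n = 2) of the reads of all 19 ALDH genes in shScrambled and 31.2% ± 0.30 (n = 2) in Parental. The share was 27.7% ± 0.48 (n = 3) in shAjuba1 and 24.3% ± 0.40 (n = 3) in shAjuba2, and it was 35.3% ± 0.29 (n = 3) in Control and 38.2% ± 1.25 (n = 3) in Ajuba OE. No 2 of the 6 lines overlapped in it. The shares sum to a fixed whole, so they show a change of proportion only. The summed level of the 10 genes was 873 RPM in shScrambled, 675 in Parental, 539 in shAjuba1 and 493 in shAjuba2. Without ALDH1A3 these sums were 375, 403, 334 and 321 RPM, so most of the difference between shScrambled and the KD lines in the sum was ALDH1A3. Control and Ajuba OE had sums of 597 and 676 RPM, and of 326 and 352 RPM without it.

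**Figure D4:**
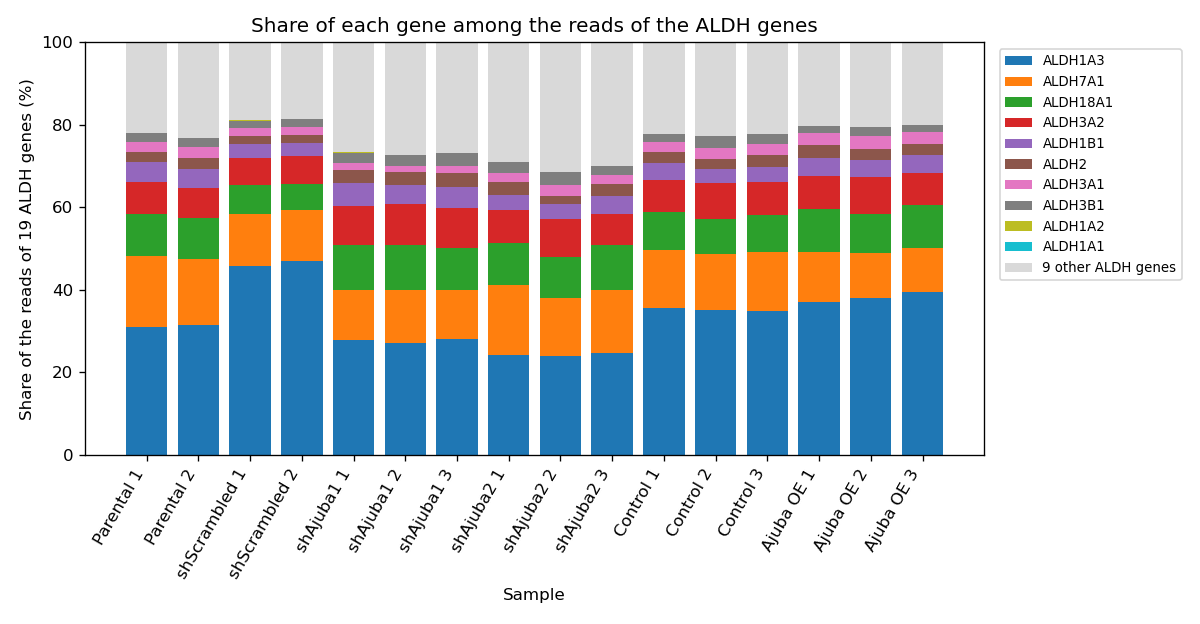
Share in percent of each gene among the reads of 19 ALDH genes, as a stacked bar for each of the 16 samples. The ALDH1A3 part takes 45.8 to 47.0% in shScrambled, 31.0 to 31.4% in Parental and 23.9 to 28.1% in the 6 KD samples.

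The 9 other ALDH genes include the folate enzymes ALDH1L1 and ALDH1L2 and several mitochondrial enzymes. In shAjuba1, 3 of the 7 tested were lower DEG and 1 was higher, or 57.1% called against 38.4% of all genes. ALDH1L2 was lower by 0.75 on the log2 scale (SE 0.162), ALDH1L1 by 0.44 and ALDH4A1, which acts after proline oxidation, by 0.33. ALDH16A1 was higher by 0.24. None of 8 was a DEG in shAjuba2 and none of 7 in Ajuba OE, by edgeR, against 7.63% and 5.43% of all genes. The medians were -0.12, -0.05 and 0.02.

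Genes of retinoid supply and retinoic acid response surround ALDH1A3 in its pathway. RDH10 supplies the retinaldehyde that ALDH1A3 oxidises, DHRS3 reduces it back to retinol, CRABP2 binds retinoic acid inside the cell, RARB is a receptor and a known target of retinoic acid, and CYP26A1 and CYP26B1 break retinoic acid down. In shAjuba1, 7 of 17 tested were higher and 7 lower. CRABP2 rose by 1.73 (SE 0.0851), RDH10 by 1.11 and CYP26B1 by 1.098. In shAjuba2, 1 of 19 was higher, CYP26B1 at 0.92 (SE 0.214, edgeR adjusted p = 0.043), and 2 were lower, DHRS3 at -0.84 (SE 0.179; -0.38 against Parental, edgeR adjusted p = 0.207) and RARB at -1.53 (SE 0.331, on 9 to 14 counts per sample). In Ajuba OE, 1 of 17 was higher, RDH10 at 0.74 (SE 0.126), and 2 were lower, CYP26A1 at -1.38 (SE 0.314) and RARG at -0.50. The shares called of 82.4%, 15.8% and 17.6% compare with 38.4%, 7.63% and 5.43% of all genes. The medians of the list were 0.09, -0.10 and 0.08.

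RDH10 and CYP26B1 did not follow ALDH1A3. RDH10 had 5.84 and 5.51 RPM in shScrambled, the lowest of the series, 9.97 and 9.67 RPM in Parental and 12.2, 13.1 and 11.8 RPM in shAjuba1. CYP26B1 had 1.56 and 1.63 RPM in shScrambled and 1.02 and 1.12 RPM in Parental, against 2.69 to 4.66 RPM in shAjuba1 and 2.61 to 3.70 RPM in shAjuba2. All 6 KD samples lay above all 10 others for CYP26B1. With Parental as the control it was higher by 1.65 in shAjuba1 (edgeR adjusted p = 0.0003) and by 1.47 in shAjuba2 (edgeR adjusted p = 0.016). CRABP2 depended more on the control, with 65.0 and 59.4 RPM in shScrambled, 169 and 174 RPM in Parental and 203 to 214 RPM in shAjuba1, so that its rise over Parental was 0.26. The rises of CRABP2 and RDH10 over Parental were not shared by shAjuba2, where they averaged 71.0 and 7.67 RPM. Their log2 differences from Parental were -1.34 and -0.42, and neither passed (edgeR adjusted p = 0.0798 and 0.0824). CRABP2 was higher in shAjuba1 than in shAjuba2 by 1.61 (edgeR adjusted p = 0.00804).

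The genes around ALDH18A1 in proline and glutamate metabolism gave 2 higher and 2 lower DEG of 8 tested in shAjuba1, 0 of 8 in shAjuba2 and 1 of 7 in Ajuba OE. These shares of 50.0%, 0% and 14.3% compare with 38.4%, 7.63% and 5.43% of all genes. In shAjuba1 the proline enzyme PYCR1 was higher by 0.42 against shScrambled and at -0.12 against Parental, which itself stood above shScrambled by 0.52. PRODH2 was lower by 3.43 on 0 to 14 counts per sample over the series. PYCR1 was the call in Ajuba OE, at 0.78 (SE 0.114), and at 0.18 against Parental it did not pass (edgeR adjusted p = 0.464). The medians were -0.17, -0.35 and 0.25.

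Of the alcohol dehydrogenases, aldo-keto reductases and other enzymes that make or remove aldehydes, 1 of 11 was higher and 4 lower in shAjuba1, 1 of 11 lower in shAjuba2 and 1 of 11 lower in Ajuba OE. These shares of 45.5%, 9.09% and 9.09% compare with 38.4%, 7.63% and 5.43% of all genes. AKR1C3 was lower in each KD line, at -2.97 (SE 0.274) and -2.74 (SE 0.306). It was low, with 3.07 and 2.15 RPM in shScrambled and 0.199 to 0.556 RPM in the KD samples. The low level was shared by lines without a knockdown, since Control held 0.245 to 0.478 RPM and Ajuba OE 0.0208 to 0.144 RPM, while Parental held 1.33 and 1.37 RPM. Of its relatives, AKR1C2 was higher by 0.70 in shAjuba1 and AKR1C1 was lower by 0.95 in Ajuba OE. Whether reads were exchanged among these genes was not tested. PTGR1 fell by 0.57 in shAjuba1, and by 0.69 against Parental. AOX1 fell by 1.53 against shScrambled, but Parental was also low and the log2 difference from it was -0.11 (edgeR adjusted p = 0.809). The medians were -0.17, -0.38 and 0.11.

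NRF2 and the aryl hydrocarbon receptor (AHR) are the best known activators of ALDH3A1. The share of 12 of their target genes called was 75.0% in shAjuba1 and 8.33% in each of shAjuba2 and Ajuba OE. Of all genes 38.4%, 7.63% and 5.43% were called. In shAjuba1, 2 of the 12 were higher and 7 lower, where 18.2% of all genes were higher DEG and 20.2% were lower DEG. The 4 AHR targets of the list were all lower there than in shScrambled, AHRR by 1.67 (SE 0.0928), CYP1B1 by 1.50, TIPARP by 0.82 and CYP1A1 by 0.30. Parental was itself below shScrambled for AHRR, by 0.83, and for CYP1A1, by 0.25, while CYP1B1 and TIPARP were not called. With Parental as the control AHRR was lower by 0.85 and CYP1B1 by 1.31 in shAjuba1. Of the 8 NRF2 targets 3 fell, among them SLC7A11 by 1.53, and 2 rose, HMOX1 by 1.47 and SRXN1 by 1.07. This division of the list, and the naming of TIPARP, CYP1A1 and SRXN1 in shAjuba1, were made after the values were seen. In shAjuba2, 1 of 12 was a DEG, CYP1A1, which fell by 1.44 (SE 0.127). In Ajuba OE 1 of 12 was a DEG, SLC7A11, which fell by 0.80 (SE 0.173). The medians were -0.37, -0.35 and -0.07.

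The 5 ABC exporters that the ALDEFLUOR buffer is made to block, since they pump the fluorescent product out of the cell, were all above the filter. In shAjuba1, ABCC1, ABCC3 and ABCG2 were higher by 0.36, 0.32 and 0.88 and ABCC2 was lower by 1.12, which against Parental was -0.35 and did not pass (edgeR adjusted p = 0.221). In shAjuba2 ABCC2 was lower by 2.26 (SE 0.322), and against Parental it was at -1.50 (edgeR adjusted p = 0.0429). In Ajuba OE ABCB1 was higher by 1.19 (SE 0.137), at 28.4, 23.1 and 25.2 RPM against 13.9, 10.4 and 11.0 RPM in Control. Parental held 23.7 and 23.6 RPM of ABCB1, and Ajuba OE did not differ from it past the threshold (log2 difference 0.17, SE 0.114, edgeR adjusted p = 0.487). ABCG2 was at -0.48 in shAjuba1 against Parental, the other direction. The medians were 0.32, -0.51 and 0.07.

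**Figure D5:**
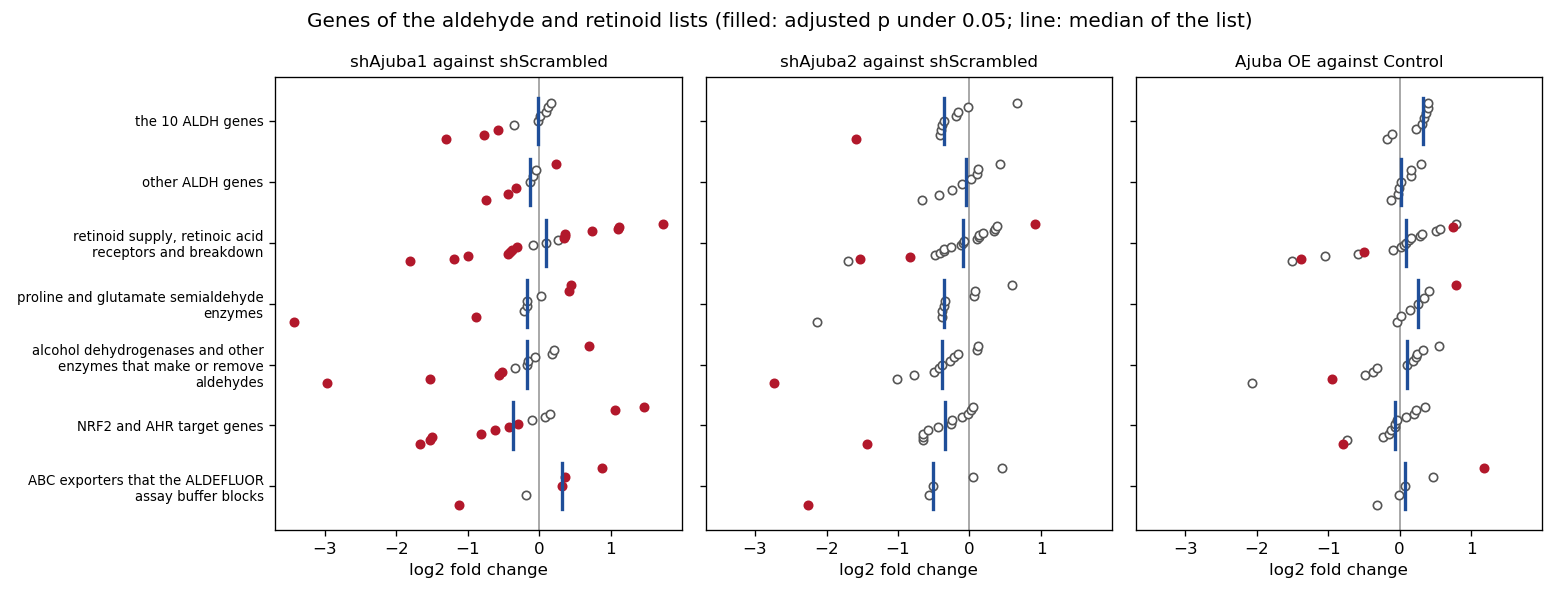
Log2 fold change (edgeR) of each tested gene of the 7 lists in the 3 comparisons, with DEG filled and the median of each list as a line. In shAjuba1 the filled genes lie on both sides of 0 in each list but that of the 10 ALDH genes, while few genes are filled in shAjuba2 and Ajuba OE.

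The genes with the most similar profile were sought for the 3 genes whose line means ranged most, by Pearson's r of log2 CPM, a level scaled by TMM, over the 16 samples and among 19383 genes. The 16 samples are 6 lines with their replicates and not independent points, so the values are a description. GDAP1, TIMP4 and IFT88 came first for ALDH1A3 (r = 0.955, 0.954 and 0.953), NFIX, LCK and VWA8 for ALDH3A1 (r = 0.987, 0.985 and 0.981), and LINC02535, RHOBTB1 and CSF2RA for ALDH1A2 (r = 0.88, 0.876 and 0.875). None of them is an ALDH gene. Among the 36 pairs of the 9 genes tested, 24 had a positive r. The share among pairs of all genes was not computed, so this count does not set these genes apart.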

How the data were processed

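RNA of 6 SW480 lines (16 samples) was sequenced from stranded mRNA libraries with paired reads of 50 bp. The authors aligned reads to GRCh38 with HISAT2 and deposited the exon counts of featureCounts for each gene, without normalization; the versions, the annotation release and the strand setting are not given in the sources used here. Symbols came from GENCODE, in which 56434 of 66023 identifiers (99.8% of counts) were found, and all 10 genes matched.

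RPM is the count divided by the total of the sample, times 1000000. Lines were compared 2 at a time with edgeR 4.0.16 in R 4.3.3 (filterByExpr, TMM, quasi-likelihood test, two-sided), with p-values adjusted by Benjamini-Hochberg over all genes tested and a threshold of 0.05. The SE was obtained from the test, as |log2 fold change| over √F. A test over all 6 lines used the 16 samples. Figures were drawn with Python 3.11.15 and matplotlib 3.10.9. Totals of 30132396 to 69684675 leave precision limited for ALDH1A1, ALDH1A2 and other low genes only.

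Alternatives were DESeq2 1.42.0, its size factors, library size alone, no filter, all samples in 1 fit, a replicate block, each replicate left out, and Parental as the control. The fit without replicate 2 of shAjuba2, Control and Ajuba OE over the 6 lines, and shScrambled as the control of Control, were added after the data were seen. The genes, the lists and the rule for named genes (every one of the 10 genes, up to 4 DEG of each other list by adjusted p, and 3 similar profiles for each of 3 genes) were chosen with earlier results of these data known. RARB, RARG, DHRS3, CYP26A1, ABCB1 and others are named under that rule, and some genes it selects are not reported here. No replicates held identical counts. Flow cytometry and protein data were not analysed here.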

Additional observations from a re-analysis of the deposited data

Results flagged for a closer look

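ALDH3A2 differed between the KD lines by a test of the difference itself. It was higher in shAjuba1 (71.3, 70.8 and 71.5 RPM) than in shAjuba2 (59.9, 52.9 and 57.8 RPM) by 0.37 on the log2 scale (SE 0.0995, edgeR adjusted p = 0.0274), in 3 of 3 samples against each of the other 3. The adjusted p ranged from 0.00122 with all 16 samples in 1 fit to 0.131 without replicate 1 of shAjuba1. The call was lost with library size alone (adjusted p = 0.0534), with no filter on low counts (0.0795), with the replicate block (0.0944), and without replicate 1, 2 or 3 of shAjuba1 or replicate 1 of shAjuba2 (0.0655 to 0.131), while the log2 difference stayed between 0.32 and 0.39 in all of these.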

How the results depend on the processing

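ALDH1A3, ALDH3A1 and ALDH7A1 were the calls in shAjuba1 in all 12 alternatives, and ALDH1A3 was called in shAjuba2 in all 12 and in Parental against shScrambled in all 10. The other counts of calls moved, and the causes were not tested. In shAjuba2 the count of 1 became 3 with all 16 samples in 1 fit and 4 with the replicate block. The share of all genes called rose there from 7.63% to 15.6% and 24%. The count ranged from 1 to 3 when a replicate of shAjuba2 was left out. It was 3 without replicate 2, with ALDH3A1 and ALDH3A2 added, where 22.7% of all genes were called. In Ajuba OE the count of 0, where 5.43% of all genes were called, became 1 with DESeq2 (8.34% of all genes). It became 3 with all 16 samples (10.1%) and 6 with the replicate block (24.3%). Without replicate 2 of both lines it was 2, ALDH1B1 and ALDH18A1 (8.18%). With Parental as the control it was 1, lower (7.15%). The count in Ajuba OE stayed at 0 when any 1 replicate was left out, where 1.89 to 4.57% of all genes were called. Between the KD lines the count of 1, where 19.6% of all genes were called, became 0 with library size alone (20%) and 2 with DESeq2 (21.3%). It became 4 with all 16 samples (24.2%) and 0 with the block (13.6%). When a replicate was left out it ranged from 0 to 4. It was 4 without replicate 2 of shAjuba2 (26.9%). It was 0 without replicate 1, 2 or 3 of shAjuba1 or replicate 1 of shAjuba2 (9.83 to 11.8%). In Parental against shScrambled 3 became 1 with all 16 samples, where the share of all genes called fell from 30.7% to 7.19%. It became 2 with DESeq2 (25%) and with the block (25.4%). In Control against Parental 0, where 0.37% of all genes were called, became 2 with no filter (4.81%). It ranged from 0 to 2 when a replicate of Control was left out. It was 2, ALDH1B1 and ALDH7A1, without Control replicate 2 (4.73%). With shScrambled as the control it was 1, ALDH1A3 (5.8%). Across the 6 lines 6 to 8 were called, while the share of all genes called ran from 28.8 to 61.6%.

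AJUBA in shAjuba2 passed in 4 of the alternatives, among them at -0.45 with all 16 samples, -0.40 with the block and -0.60 against Parental. It ranged from -0.55 to -0.38 when a replicate was left out (-0.55 without replicate 2). With Parental as the control ALDH1B1 turned to -0.11 in Ajuba OE, and in shAjuba1 PYCR1 turned to -0.12 and ABCG2 to -0.48.

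Within the 6 comparisons of 2 lines, the replicate numbers paired few of the samples. Replicate 2 of shAjuba2 was not set against that of Control or Ajuba OE in this way. Replicate 2 of Ajuba OE and Control correlated at 0.505, a shared shift that the fit without the block leaves in the spread. The other correlations of same-numbered samples in these comparisons ran from -0.131 to 0.188. Of these only replicate 2 of shAjuba2 and shScrambled exceeded 0.1. The source of the shared shift was not tested. With the block the DEG over all genes were 8863, 5377 and 5140 in shAjuba1, shAjuba2 and Ajuba OE, against 8103, 1713 and 1147 without it.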
